A study of Mus musculus with 12 samples.

Results

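Placental growth factor (Pgf), VEGF-A and VEGF-B, their receptors and the angiopoietin-Tie genes were examined in the descending aorta of aged and adult mice. The group was made of every gene probe whose name on the array is Pgf, Vegfa, Vegfb, Flt1, Kdr, Nrp1, Angpt1, Angpt2, Angpt4 or Tek. This gave 10 genes and 12 probes, of 55681 gene probes on the array. The study compared male C57BL/6 mice aged 20 months (6 mice) with male C57BL/6 mice aged 6 months (6 mice). No treatment or engineered allele is named in the labels for either age, and the mice of both ages came from 1 supplier. One array was hybridised per mouse with Cy3-labelled RNA of the whole vessel, which had been flushed with saline and cleaned of surrounding fat before freezing. The genes were chosen by their part in these pathways with their differences in signal between the ages already known. The age differences below therefore describe them and support nothing further.

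The VEGF family controls the growth, permeability and upkeep of blood vessels. Vegfa acts through the receptor tyrosine kinases Flt1 (VEGF receptor 1) and Kdr (VEGF receptor 2), whereas Pgf and Vegfb bind Flt1 and not Kdr, and Nrp1 serves as a co-receptor. Angiopoietins act through Tek (Tie2), the receptor tyrosine kinase of endothelial cells. Angpt1 activates Tek, Angpt2 can block or activate it according to context, and Angpt4 is the third ligand, the mouse counterpart of human angiopoietin 4.

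Only Pgf and Angpt4 of the 10 genes were called changed between the ages, both higher at 20 months. Their promoters are printed first because these are the 2 called genes of the group. Each window runs from 250 bases before to 50 bases after the start of the transcript on its own strand (RefSeq, GRCm38.p6). Capitals mark matches on either strand to 4 motifs: ACGTG and GCGTG, the cores of the hypoxia response element, CCGCCC, the GC box, and TATAAA, the TATA box.
Pgf, chr12:85177264-85177563, minus strand: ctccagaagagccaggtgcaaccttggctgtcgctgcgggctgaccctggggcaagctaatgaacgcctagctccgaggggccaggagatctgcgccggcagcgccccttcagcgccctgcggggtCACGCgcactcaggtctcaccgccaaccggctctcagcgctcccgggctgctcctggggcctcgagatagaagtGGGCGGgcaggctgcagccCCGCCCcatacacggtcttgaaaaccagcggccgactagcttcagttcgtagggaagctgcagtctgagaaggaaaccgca
Angpt4, chr2:151910957-151911256, plus strand: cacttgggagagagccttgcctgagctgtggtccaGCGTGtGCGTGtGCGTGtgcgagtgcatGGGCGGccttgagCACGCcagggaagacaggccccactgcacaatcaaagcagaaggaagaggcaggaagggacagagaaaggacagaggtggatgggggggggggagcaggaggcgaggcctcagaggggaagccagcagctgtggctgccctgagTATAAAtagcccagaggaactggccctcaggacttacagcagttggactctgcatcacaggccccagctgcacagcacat

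In the Pgf window GCGTG was found once, at -124 from the start on the minus strand of the window, and CCGCCC was found at -50 and -31. The other Pgf window in the RefSeq table, at chr12:85175933-85176232, held none of the 4 motifs. In the Angpt4 window GCGTG was found 4 times, at -215, -209, -203 and -174, CCGCCC was found at -187, and TATAAA was found at -30. No match overlapped another. Among 32851 RefSeq promoter windows of the same length, 32.4% held GCGTG, 19.6% held ACGTG, 43.8% held either, 35.7% held CCGCCC and 13.6% held TATAAA. Of the 10 genes 8 had at least 1 window in the table, while Angpt1 and Angpt2 were not in it. Kdr, Flt1, Nrp1, Vegfa and Vegfb, none of them called, also had a window with both GCGTG and CCGCCC. The Flt1 window held TATAAA too, at -31. GCGTG together with CCGCCC was therefore not particular to the windows of the called genes. The other Vegfa window, at chr17:46032328-46032627, held CCGCCC and not GCGTG, and the Tek window held none of the 4 motifs. These matches describe the letters of the windows and no binding was measured.

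Probes of 60 bases measured each transcript, and those of Angpt4 and Tek are printed as the probes of the called angiopoietin and of its receptor (mm9 positions, in lower case throughout, no base marked).
Angpt4 probe A_51_P372393, chr2:151770254-151770313, plus strand: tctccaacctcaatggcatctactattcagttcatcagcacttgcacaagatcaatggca
Tek probe A_55_P2262136, chr4:94540624-94540683, plus strand: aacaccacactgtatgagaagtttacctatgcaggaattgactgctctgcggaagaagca

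Every value below is a log2 level, the log2 of the scanner's processed signal minus the 75th percentile of the gene probes on that array. A level of 0 is therefore the 75th percentile, and levels are compared between mice for 1 probe and never between probes. All 12 probes of the 10 genes stood well above background on all 12 arrays, so all 10 genes entered the test. Ages were compared with limma over 16995 genes, and a gene was called changed at a Benjamini-Hochberg adjusted p under 0.05. Of these genes 56 were called (47 higher and 9 lower at 20 months), which is 0.33% of those tested (0.277% higher and 0.053% lower). The median change over all genes was -0.02, and 43.9% of them had a positive change. The scanner marked 47.5% to 55.8% of an array's gene probes as well above background, and no gene spot as saturated. The number of mice limits the precision, and the standard error of the 10 genes' changes ran between 0.11 and 0.18.

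The vessel's own markers were present: all 8 smooth muscle markers and all 12 endothelial markers were measured. The mean of the smooth muscle markers lay between 6.03 and 6.41 at 20 months and between 5.83 and 6.41 at 6 months. The mean of the endothelial markers lay between 2.41 and 2.69 at 20 months and between 2.44 and 2.82 at 6 months. All 12 brown adipocyte markers, Ucp1 among them, were also measured, and all 12 had a negative change (none called), with means of 4.37 to 5.24 at 20 months and 4.46 to 5.52 at 6 months. All 10 measured macrophage markers had a positive change, with means of 0.86 to 1.33 at 20 months and 0.40 to 1.16 at 6 months, and all 6 measured mast cell markers did too, with means of 0.24 to 0.82 and -0.61 to 0.44 at the same ages (1 called). The largest shift of a marker list was that of the mesothelial markers, all 6 measured with a negative change (none called). Their means lay between -4.52 and -1.52 at 20 months and between -2.48 and 0.08 at 6 months, a difference of -2.12. All 5 measured erythroid markers had a positive change (none called), with means of 2.13 to 3.45 at 20 months and 1.78 to 3.11 at 6 months. So did all 4 measured lymphatic endothelial markers (none called), with means of 0.95 to 1.83 at 20 months and 0.52 to 1.78 at 6 months. In addition, 3 arrays stood apart. Replicate 1 at 20 months and replicate 1 at 6 months were high in heart muscle markers, with means of 3.29 and 2.13, and replicate 4 at 6 months was high in T and NK cell markers, with a mean of 1.40. Each of 3 slides held 2 arrays of each age. All 20-month arrays lay in 1 column of their slide and the 6-month arrays in others, so array position and age cannot be told apart.

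Pgf, a ligand of Flt1, rose at 20 months. Its log2 level was lowest at -1.23, had a median of -0.92 and was highest at -0.40 in the 6 aortas at 20 months, against a lowest of -2.10, a median of -1.69 and a highest of -1.35 in the 6 aortas at 6 months. Every 20-month aorta was above every 6-month aorta, with a gap of 0.12 between the nearest pair. The mean was -0.86 ± 0.30 at 20 months and -1.72 ± 0.25 at 6 months (SD, n = 6 each). The change was 0.86 (SE 0.15, 95% interval 0.54 to 1.18), or 1.81-fold (1.45 to 2.27), with limma's adjusted p = 0.0314. By p it was gene 36 of the 16995 tested. The probe, A_51_P318381, maps to chr12:86508335-86510337 (mm9, minus strand), a span of 2003 bases for a probe of 60, so it crosses an intron.

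The difference in Pgf was positive on each slide: 0.76 on slide 1, 0.67 on slide 2 and 1.14 on slide 3. The 2 highest 20-month aortas, replicate 5 at -0.40 and replicate 3 at -0.63, were both on slide 3, which was scanned on a later day than the other 2. With slide as a fixed block the change was the same and limma's adjusted p was 0.0130. The call is close to its threshold: it was lost when any of 9 of the 12 arrays was left out, with adjusted p between 0.0555 and 0.0855 (6 months replicates 1, 2, 3 and 5 and 20 months replicates 2 to 6), while the change itself stayed between 0.76 and 0.93. Without the 3 arrays that stood apart it was 1.04 (limma's adjusted p = 0.0327), and after normexp background correction 0.52. In whole tissue, more cells that express a gene and more RNA per cell cannot be told apart.

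Angpt4, the third ligand of Tek, rose at 20 months as well. Its log2 level was lowest at -1.06, had a median of -0.61 and was highest at -0.44 at 20 months, against a lowest of -1.92, a median of -1.65 and a highest of -1.14 at 6 months. The groups did not overlap, and the gap between replicate 1 at 20 months and replicate 1 at 6 months, the 2 arrays high in heart muscle markers, was 0.07. The mean was -0.66 ± 0.21 at 20 months and -1.61 ± 0.29 at 6 months (SD, n = 6 each). The change was 0.96 (SE 0.14, 95% interval 0.66 to 1.26), or 1.94-fold (1.58 to 2.39), with limma's adjusted p = 0.0113, gene 13 of those tested. It was 0.79, 1.24 and 0.84 on slides 1, 2 and 3. The call held with any 1 array left out (change 0.90 to 1.05). Without the 3 arrays that stood apart the change was 1.08, and after normexp background correction it was 0.59. Only 1 probe on the array carries the name Angpt4. There were 2 further probes named Ang3, an older name of this angiopoietin. The array's annotation describes them as angiogenin, a ribonuclease, and they were not counted as Angpt4.

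Together, 2 of the 10 genes were called and the same 2 had groups that did not overlap, where 0.33% of all genes were called and 0.818% did not overlap. Since the genes were picked with this comparison known, nothing is read from that count. The other 8 had changes between -0.18 and 0.03, with limma's adjusted p between 0.710 and 0.960, and their groups overlapped. Of the 10 changes 3 were positive and 7 negative, with a median of -0.10, where 43.9% of all genes had a positive change. Marker means differed between the ages (20 minus 6 months) by -2.12 for mesothelial, -0.37 for brown adipocyte, 0.64 for mast cell, 0.48 for erythroid, 0.32 for macrophage and 0.22 for lymphatic endothelial markers. Their part in the differences of Pgf and Angpt4 was not tested.

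**Figure D1:**
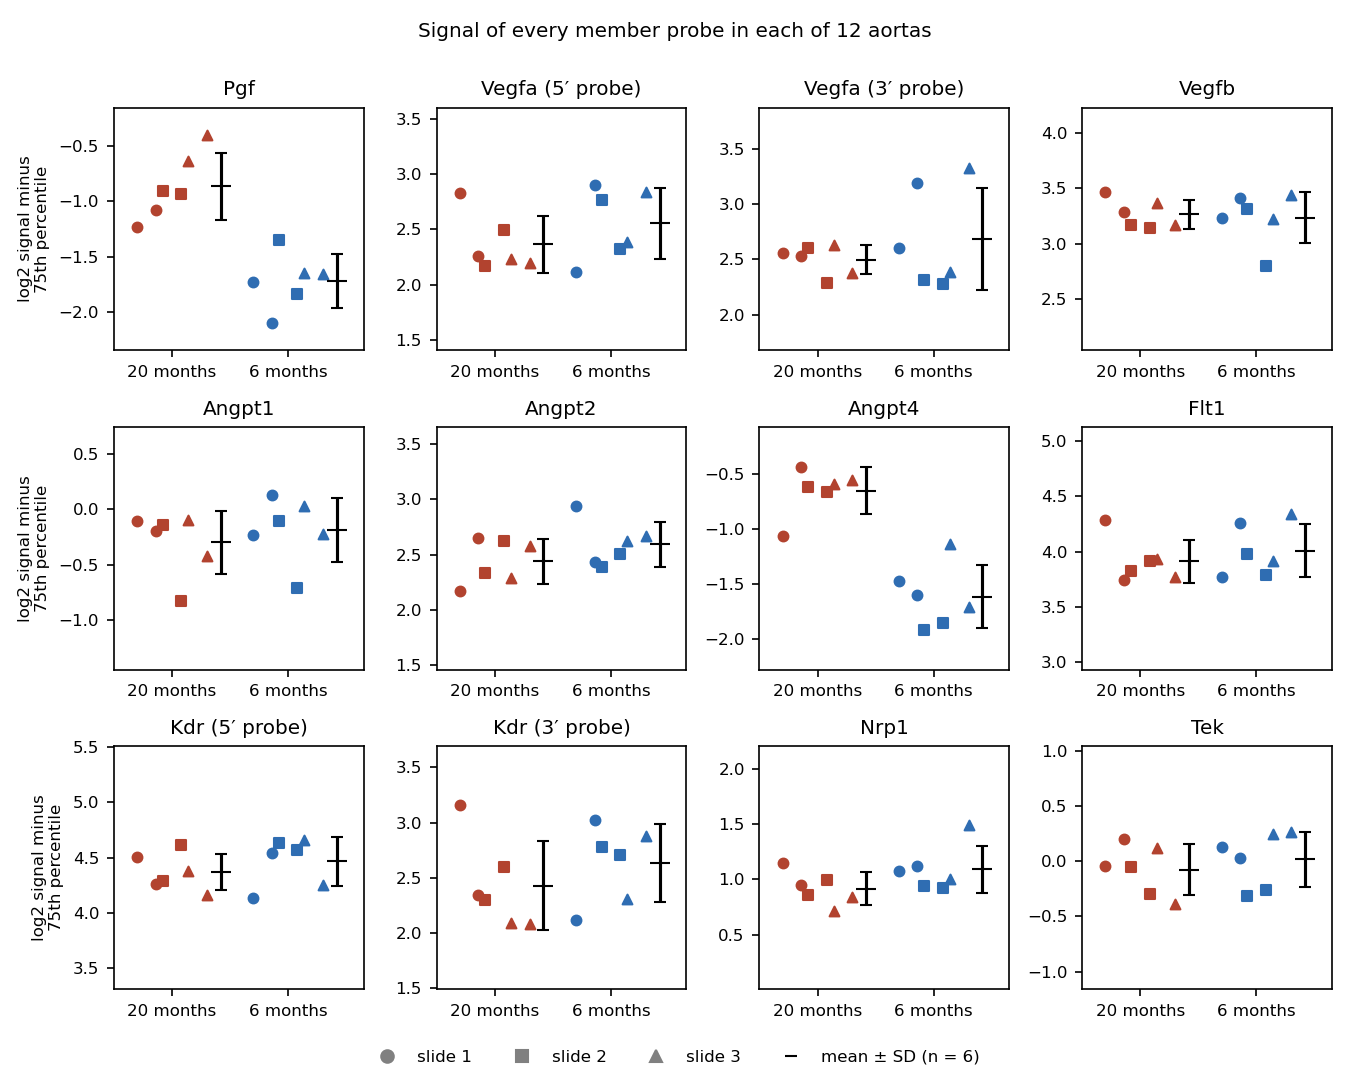
Log2 level (log2 processed signal minus the array's 75th percentile) of each of the 12 probes in 6 aortas at 20 months (left, red) and 6 aortas at 6 months (right, blue), with the marker shape giving the slide and the black bar the mean ± SD of 6. The vertical axes all span the same range. Only for Pgf and Angpt4 do all 20-month aortas lie above all 6-month aortas, and the other 10 panels overlap.

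Vegfa, the main mitogen of endothelial cells, was read by 2 probes. The 3′ probe, A_52_P638895 (2 spots per array, chr17:46154387-46154446, minus strand, mm9), had levels of 2.29, 2.54 and 2.63 (lowest, median, highest) at 20 months and 2.28, 2.49 and 3.33 at 6 months. Replicates 3 and 6 at 6 months stood above all other aortas, and the 20-month range lay inside the 6-month range. The change was -0.18 (SE 0.18, 95% interval -0.58 to 0.21; adjusted p = 0.816). The 5′ probe, with 1 spot per array, had levels of 2.17, 2.24 and 2.83 at 20 months and 2.11, 2.58 and 2.90 at 6 months, and a change of -0.19 (SE 0.16). Neither probe was called, and the interval of the 3′ probe covers folds between 0.67 and 1.15.

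Vegfb, which binds Flt1, had levels of 3.14, 3.23 and 3.47 at 20 months and 2.80, 3.27 and 3.44 at 6 months. The groups overlapped, apart from replicate 5 at 6 months, which lay below all other aortas, and replicate 1 at 20 months, which lay above them. The change was 0.03 (SE 0.11, 95% interval -0.20 to 0.27; adjusted p = 0.960). Leaving out either of those 2 arrays turned its sign.

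Of the receptors none was called. Flt1 had levels of 3.75, 3.87 and 4.28 at 20 months and 3.77, 3.95 and 4.34 at 6 months, and a change of -0.10 (SE 0.12, 95% interval -0.36 to 0.17). Replicate 1 at 20 months stood alone at 4.28, with the other 5 aortas of that age between 3.75 and 3.93. A further 2 probes carry Ensembl transcript names of Flt1 and fall outside the naming rule. One of them, A_55_P2166282, lies 73022 bases from the named probe, was above background on all 12 arrays and had a change of -0.03 (SE 0.13). The other, A_52_P405145, was above background on none.

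Kdr, the main signalling receptor of Vegfa, also had 2 probes. The 5′ probe, A_55_P2094469 (chr5:76330395-76330454, minus strand, mm9), had levels of 4.16, 4.33 and 4.61 at 20 months and 4.13, 4.55 and 4.66 at 6 months, and a change of -0.10 (SE 0.11, 95% interval -0.34 to 0.14). The 3′ probe, A_51_P316553 (10 spots per array, chr5:76329309-76329368, minus strand, mm9), had levels of 2.08, 2.32 and 3.16 at 20 months and 2.12, 2.74 and 3.02 at 6 months, and a change of -0.21 (SE 0.20). The highest 3′ value of all 12 aortas belonged to replicate 1 at 20 months, and the ages overlapped at both probes. Nrp1, the co-receptor, had levels of 0.71, 0.90 and 1.15 at 20 months and 0.92, 1.04 and 1.496 at 6 months. Its change of -0.18 (SE 0.11, 95% interval -0.40 to 0.05) had the smallest adjusted p of the 8 uncalled genes, 0.710, and replicate 6 at 6 months stood above all other aortas.

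Neither of the main ligands of Tek nor Tek itself was called. Angpt1, the activating ligand, had levels of -0.83, -0.17 and -0.10 at 20 months and -0.71, -0.16 and 0.13 at 6 months, and a change of -0.11 (SE 0.16, 95% interval -0.45 to 0.22). In each age 1 aorta of slide 2 was far lower than the other 5, replicate 6 at 20 months and replicate 5 at 6 months. Angpt2, the context-dependent ligand, had levels of 2.17, 2.46 and 2.65 at 20 months and 2.38, 2.56 and 2.94 at 6 months, and a change of -0.15 (SE 0.11, 95% interval -0.40 to 0.09). Tek had levels of -0.39, -0.05 and 0.20 at 20 months and -0.32, 0.08 and 0.26 at 6 months, and a change of -0.09 (SE 0.13, 95% interval -0.38 to 0.20). The 95% intervals of these 3 genes cover folds between 0.73 and 1.17, so a larger change than that in either direction lies outside them.

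**Figure D2:**
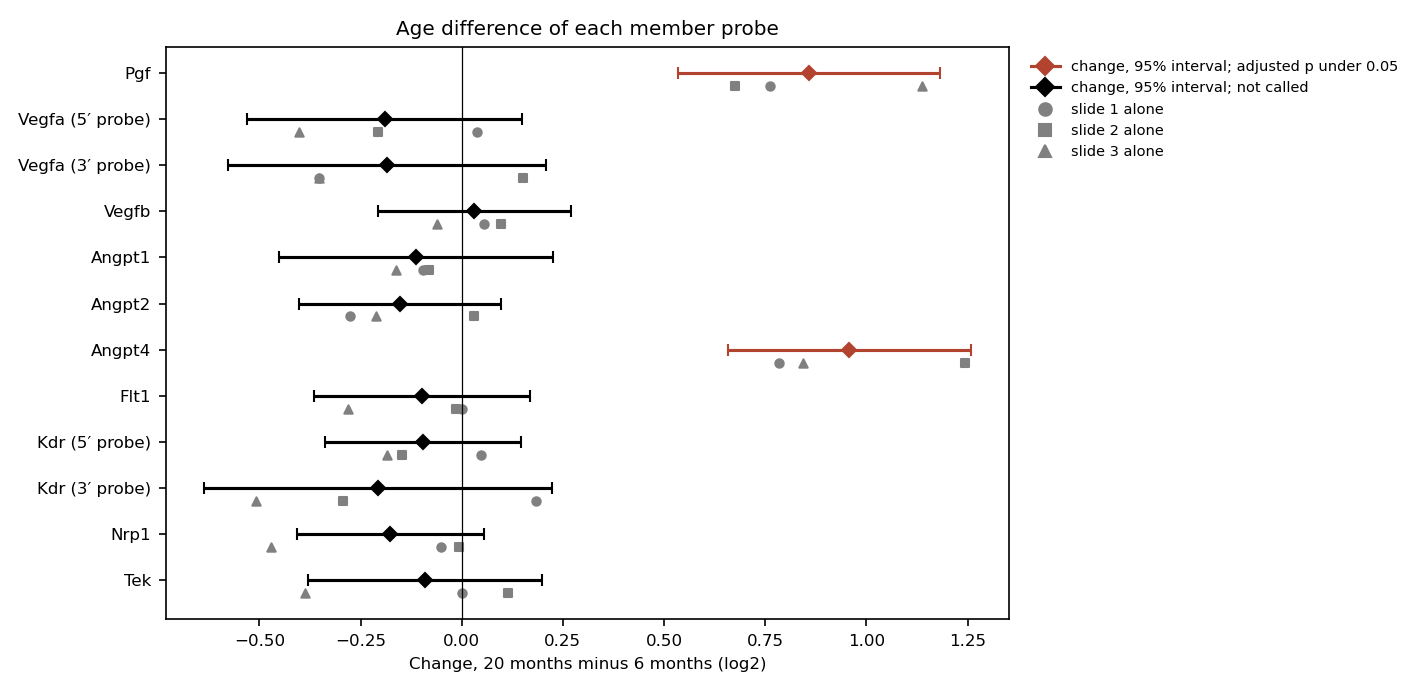
Change between the ages (log2 level at 20 months minus 6 months) for each of the 12 probes from the test over all probes, with its 95% interval; grey symbols give the change on each slide alone (2 arrays of each age). Pgf and Angpt4 lie near 0.86 and 0.96 on the right with every slide above 0.6, and every other interval crosses 0.

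The spread between mice differed among the genes. The median SD of the 10 was 0.20 at 20 months and 0.24 at 6 months. Over all genes tested the medians were 0.18 at 20 months and 0.21 at 6 months, so the smaller spread at 20 months was not particular to the 10.

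Probes of 1 gene did not track each other closely across mice. The 2 Vegfa probes lie 7930 bases apart and correlated at r = 0.50 over the 12 aortas (-0.13 within 20 months, 0.62 within 6 months). The 2 Kdr probes lie 1027 bases apart and correlated at r = 0.51 (0.68 and 0.30). In contrast the Vegfa 5′ probe and the Kdr 3′ probe, of different genes, correlated at r = 0.91 (rho 0.89; 0.96 within 20 months, 0.89 within 6 months), the highest of the 66 pairs among the 12 probes. The Vegfa 5′ probe correlated at r = 0.90 with Flt1 (0.91 and 0.89). These pairs were ranked after the values were seen and are given without a test. All of them share the arrays and their scaling.

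Levels of the 10 genes were then set against the mean of the endothelial and of the brown adipocyte markers across the 12 aortas, 20 relations in all, each with a two-sided permutation test adjusted over the 20. For Pgf and Angpt4 the ages form separate clusters, so only values within an age are given for them. Of the 20, 5 had an adjusted p under 0.05 for Pearson's r, and none for Spearman's rho (lowest adjusted permutation p 0.062). Tek had r = 0.75 with the endothelial markers (adjusted permutation p = 0.035, rho 0.73). Without the 2 arrays farthest from the median of the marker mean r was 0.78, and with quantile normalization 0.68. Within 20 months r was 0.72 (exact permutation p = 0.18) and within 6 months 0.76 (exact permutation p = 0.093), both before adjustment. Vegfa by its 3′ probe had r = 0.74 with the same markers (adjusted permutation p = 0.015; rho 0.64; 0.70 without 2 arrays). Flt1 had r = 0.70 with them (adjusted permutation p = 0.048; rho 0.56; 0.54 without 2 arrays), whereas Kdr by its 5′ probe had r = -0.04 (adjusted permutation p = 0.912; rho -0.08).

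With the brown adipocyte markers, Flt1 had r = 0.90 (adjusted permutation p = 0.009; rho 0.75; 0.77 without 2 arrays). Within 20 months r was 0.89, and rho was 0.37, with replicate 1 alone high in both, and within 6 months r was 0.93 and rho 0.94. Nrp1 had r = 0.77 (adjusted permutation p = 0.015; rho 0.69), which was 0.51 without 2 arrays. When every probe was used in place of the brightest of a gene, a choice made after seeing the data, 7 of 24 relations passed. The Vegfa 5′ probe then had r = 0.91 with the brown adipocyte markers (adjusted permutation p = 0.004; rho 0.80; 0.85 within 20 months with rho 0.26, 0.94 within 6 months with rho 0.89). The Kdr 3′ probe had r = 0.87 (adjusted permutation p = 0.004; rho 0.85; 0.89 within 20 months with rho 0.60, 0.90 within 6 months with rho 0.94). The other probes of these genes had r = 0.64 (Vegfa 3′, rho 0.20) and r = 0.26 (Kdr 5′, rho 0.32), and the difference between the probes was not tested. Without the 3 arrays that stood apart, r over 9 aortas was 0.90 for Flt1, 0.89 for the Vegfa 5′ probe and 0.85 for the Kdr 3′ probe. None of the 20 relations of the brightest probes passed in that setting. Of these 9 aortas, replicates 3 and 6 at 6 months were the highest in the brown adipocyte markers, with means of 5.31 and 5.52. The same aortas were also the highest of the 9 at each of these 3 probes. With the endothelial markers over all 12 aortas, the Vegfa 5′ probe had r = 0.48 (adjusted permutation p = 0.201, rho 0.52). The Kdr 3′ probe had r = 0.37 with them (adjusted permutation p = 0.336, rho 0.38). The endothelial relations of Vegfa and Kdr thus also differed between probes.

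Within 20 months Angpt4 ran against the brown adipocyte markers, with r = -0.94 (rho -0.77, exact permutation p = 0.032 before adjustment, n = 6). The relation was not particular to these markers. In the same aortas Angpt4 had r = -0.88 with the heart muscle markers (rho -0.54) and -0.89 with the skeletal muscle markers (rho -0.60). With Flt1 it had r = -0.97. Replicate 1 was the lowest of these aortas in Angpt4 and the highest in Flt1 and in each of these marker means. Within 6 months Angpt4 had r = -0.46 with the brown adipocyte markers (exact permutation p = 0.367, n = 6). Pgf had r = -0.61 with the brown adipocyte markers within 20 months and -0.10 within 6 months. Pgf and Angpt4 correlated with each other at r = 0.50 within 20 months and -0.17 within 6 months. A slide held 4 arrays, too few for a correlation within it.

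**Figure D3:**
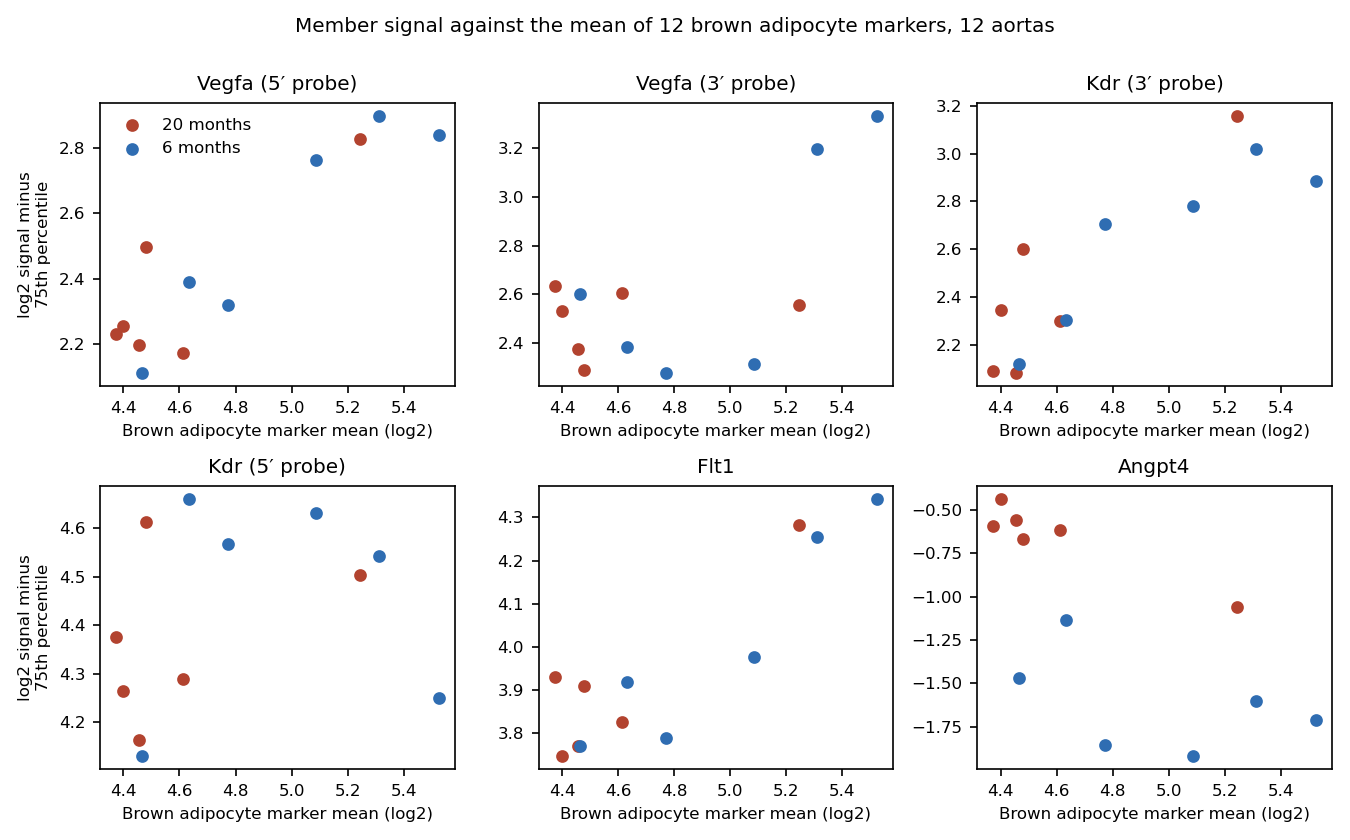
Log2 level of 6 probes (vertical) against the mean log2 level of 12 brown adipocyte markers (horizontal) in 6 aortas at 20 months (red) and 6 at 6 months (blue). The Vegfa 5′ probe, the Kdr 3′ probe and Flt1 climb with the marker mean (r = 0.91, 0.87 and 0.90), the other Vegfa and Kdr probes do so less closely (0.64 and 0.26), and for Angpt4 the ages lie apart.

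Other genes of the same pathways were described from 6 lists with 89 genes, of which 82 were tested. One was called, higher, 41 had a positive and 41 a negative change, and the median change was 0.00. At an unadjusted p under 0.05 there were 7 of 82, where 7.98% of all genes tested had one. The called gene was Vegfd, a ligand of Flt4 and, in humans, of Kdr. Its level lay between 3.37 and 3.72 at 20 months and between 2.68 and 3.32 at 6 months, without overlap. The change was 0.62 (SE 0.12, 95% interval 0.37 to 0.88; limma's adjusted p = 0.0496). The call was lost when any array other than replicate 1 at 6 months was left out (adjusted p 0.0507 to 0.143 in those 11 fits), and it held in 7 of 24 alternatives.

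Among the other VEGF and Tie ligands and receptors, 6 of 7 were tested. Svep1, a matrix protein that binds Tie1, had a change of 0.41 (SE 0.11; adjusted p = 0.230). None of the 12 semaphorins and plexins, which share the neuropilin co-receptors, was called, and their changes ran between -0.12 and 0.27. The smallest p in that list belonged to the plexin genes Plxna2, with a change of 0.20 (SE 0.15), and Plxna3, with 0.25 (SE 0.21). None of 24 tested genes of signal transduction below the receptors was called. The kinase gene Akt1 had a change of 0.15 (SE 0.08; adjusted p = 0.669) and the adaptor gene Grb14 one of -0.23 (SE 0.11; adjusted p = 0.669).

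Hypoxia induces Vegfa, and 2 lists covered that route. None of 9 tested genes of oxygen sensing was called, with changes of 0.11 (SE 0.07) for Hif1an, the asparagine hydroxylase that inhibits HIF, and -0.08 (SE 0.08) for Arnt, the partner of HIF-1α. None of 15 tested hypoxia response genes was called, 11 of them with a negative change. Ndrg1 had a change of 0.23 (SE 0.10; adjusted p = 0.613) and Ldha, lactate dehydrogenase A, one of -0.30 (SE 0.21; adjusted p = 0.758). None of 16 tested endothelial response and tip cell genes was called either, 12 of them with a positive change and 4 with an unadjusted p under 0.05. Of all genes tested, 43.9% had a positive change and 7.98% an unadjusted p under 0.05. Rcan1, a calcineurin inhibitor that VEGF induces in endothelial cells, missed the threshold with a change of 0.58 (SE 0.11; adjusted p = 0.0563), and passed it in 8 of 24 alternatives. Its level lay between 1.58 and 2.27 at 20 months and between 1.22 and 1.55 at 6 months, without overlap. Plaur, the urokinase receptor, had a change of 0.36 (SE 0.13; adjusted p = 0.455).

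**Figure D4:**
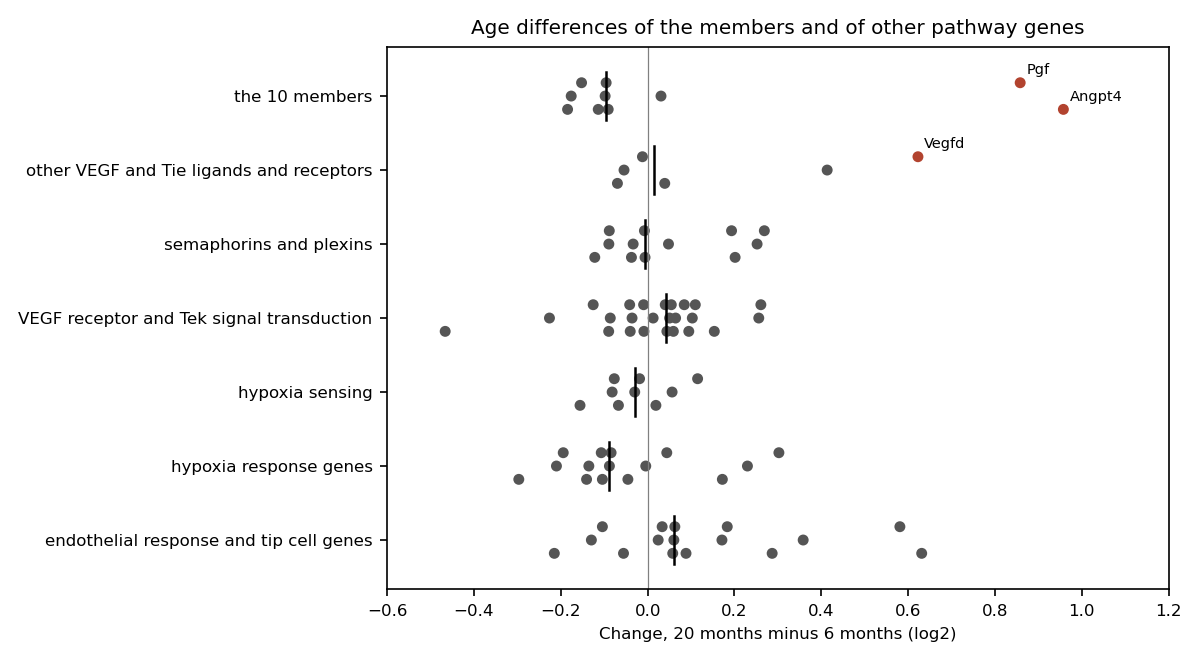
Change between the ages (log2 level at 20 months minus 6 months) of each tested gene, in rows for the 10 genes described here and for 6 lists of other pathway genes, with red points for called genes and a black bar for the median of a row. Pgf, Angpt4 and Vegfd are the called genes, and each row's median lies within 0.10 of 0.

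The 5 genes whose levels were most like those of Pgf over the 12 aortas, by Pearson's r among 13393 tested genes (clone, accession and model-number names left out), were Kif1a (r = 0.93), Nfasc (0.91), Rin1 (0.90), Elapor2 (0.89) and Serpini1 (0.89). Angpt4 was 73rd in that order. Pgf separates by age, so genes that do so too can score high. Within 20 months the 5 had r between 0.62 and 0.89, and within 6 months between 0.02 and 0.69. Within 20 and 6 months r was 0.89 and 0.65 for Kif1a, 0.83 and 0.69 for Elapor2, and 0.62 and 0.55 for Nfasc. It was 0.80 and 0.33 for Rin1, and 0.85 and 0.02 for Serpini1. Kif1a, a kinesin motor of axonal transport, rose by 0.74 (SE 0.11, limma's adjusted p = 0.0113). Nfasc, the cell adhesion protein neurofascin, rose by 1.59 (SE 0.13; adjusted p = 1.6e-04).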

How the data were processed

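RNA of 12 descending aortas was hybridised to 12 Agilent 1-colour arrays. Per the file headers, the deposited scanner files come from Feature Extraction 10.7.1.1 (protocol GE1_107_Sep09, probe positions on mm9), and their processed green intensity is background-subtracted and not scaled between arrays. The authors also deposited a table of log2 values whose steps are not given in the sources used here. It correlates at 0.898 to 0.985 per array with the median-centred scanner values and served as an alternative.

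Outlier spots were left out, spots of a probe averaged and the array's 75th percentile subtracted from log2 intensity. Of 55681 gene probes, 55630 were kept. Names came from RefSeq accessions (26395 probes), symbols (3851) or the array (5769), and 19615 stayed unnamed. The sequence of 1 Vegfa probe is not reported here. A probe was tested if well above background on at least 6 arrays, and a gene by its brightest probe. Ages were compared with limma 3.58.1 (R 4.3.3, age as the only term, Benjamini-Hochberg over 16995 genes). The probe figures come from the same fit over 27583 probes, in which Pgf had an adjusted p of 0.0368. The test was tried on simulated data. Correlations used 100000 permutations, or all orders within an age. The labels give 1 mouse per array.

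The 10 genes, the lists and the rule for named genes (every probe of the 10 genes, called genes and the 2 smallest p of each list, and the 5 genes most like Pgf) were chosen with earlier results of these data known. Alternatives were normexp (offset 50), quantile and median scaling, the value table, other filters, slide blocks, each slide alone, the replicate block, robust eBayes, mean over probes and arrays left out. Using every probe for the correlations was chosen after seeing the data.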

Additional observations from a re-analysis of the deposited data

Results flagged for a closer look

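Single aortas lay far from the others of their age for 4 of the 10 genes, by Dixon's test on groups of 6, in which chance picks out about 1 in 20 groups (28 groups were examined, and 5 stood out). Flt1 was 4.28 in replicate 1 at 20 months, where the next value of that age was 3.93. Angpt4 was -1.06 in the same aorta, where the next value was -0.67. That array was high in heart muscle and in brown adipocyte markers, with means of 3.29 and 5.24. Nrp1 was 1.496 in replicate 6 at 6 months, where the next value was 1.12. Vegfb was 2.80 in replicate 5 at 6 months, where the next value was 3.23. The Flt1 probe A_52_P405145, which carries an Ensembl name and was not above background on any array, read -5.46 in replicate 1 at 6 months.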

How the results depend on the processing

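The rises of Pgf and Angpt4 stayed positive in all 24 alternatives that used both ages over several slides. Angpt4 kept its call in 23 of them and Pgf in 13, with changes between 0.59 and 1.08 for Angpt4 and between 0.52 and 1.04 for Pgf. The count of called genes, 56 as reported, was 34 with median scaling, 25 with no filter on dim probes, 32 without the 3 arrays that stood apart and 22 to 61 with 1 array left out. Of the 10 genes 2 were called as reported, 1 with no filter (1 probe also) and 1 to 2 with 1 array left out (1 to 2 probes also). On slides 1, 2 and 3 alone, with 4 arrays each, 1, 1 and 0 genes were called, and 0 of the 10 genes and 0 of their probes. With the replicate block 8 genes were called, and 0 of the 10 genes and 0 probes (adjusted p 0.1997 for Pgf and 0.134 for Angpt4). Deviations from the age means correlated between same-numbered arrays at -0.36 to 0.32. These values cannot decide whether replicate numbers pair the mice, since differently numbered arrays were not compared. Of the uncalled genes, Flt1 (0.0018), Kdr (0.047) and Tek (0.00028) turned sign on slide 1, Vegfa (0.15), Angpt2 (0.031) and Tek (0.12) on slide 2 and Vegfb on slide 3 (-0.061). Vegfb turned to -0.057 without replicate 5 at 6 months and to -0.0092 without replicate 1 at 20 months, in a range of -0.057 to 0.071. Plxna3 was -0.41 on slide 1 and Arnt 0.039 on slide 2. Of the 20 relations with marker means, 5 passed as reported, 0 without the 2 farthest arrays, 0 in either age alone (0 at 20 months, 0 at 6 months), 0 without the 3 arrays that stood apart, 3 with quantile normalization and 3 with the value table. Fewer arrays enter the slide, single-age and left-out settings, and the cause of the other shifts was not tested.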

Other observations

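Each of the 12 probes was also set against the means of all 15 cell type marker lists across the 12 aortas, 180 relations chosen after the data were seen. Pearson's r passed an adjusted permutation p under 0.05 in 4 of them, and Spearman's rho in none (lowest adjusted permutation p 0.062). Of the 4, 3 were the relations of the Vegfa 5′ probe, the Kdr 3′ probe and Flt1 with the brown adipocyte markers (adjusted permutation p = 0.022 each). The fourth was the Vegfa 3′ probe, which ran against the smooth muscle markers with r = -0.91 (rho -0.76, adjusted permutation p = 0.022). This r was -0.97 within 6 months and -0.57 within 20 months, and -0.58 without the 2 arrays farthest from the median of the marker mean. Replicates 3 and 6 at 6 months, with Vegfa levels of 3.20 and 3.33, were the 2 highest of the 12 aortas at that probe. The same 2 aortas had the lowest smooth muscle marker means, 5.88 and 5.83. They also had the highest endothelial (2.71 and 2.82) and brown adipocyte marker means (5.31 and 5.52), so these relations share the same 2 extreme aortas.

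Among the 10 genes, read by the brightest probe, Vegfb and Flt1 correlated at r = 0.74 within 20 months and 0.74 within 6 months, Vegfb and Angpt1 at 0.67 and 0.83, and Flt1 and Nrp1 at 0.63 and 0.77. These are the 3 pairs of 45 with the highest r in the age where it was lower, and no test was made of them.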
